A study of Bos taurus with 2 samples.

Results

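The DBH/HAND2 group comprised barcodes, each standing for 1 captured cell, with transcripts of DBH or of HAND2 together with CNTN5, in 2 single-cell libraries from day 25 bovine embryos. A barcode with at least 1000 UMI (unique molecular identifiers; 1 UMI is 1 transcript molecule caught in the droplet) and at least 500 genes was a member if it held at least 1 DBH UMI, or at least 1 HAND2 UMI with at least 3 CNTN5 UMI. Barcodes with 10 or more UMI of COL1A1, COL1A2 and COL3A1 in all were left out of the group, which removed 3 that otherwise qualified. Such barcodes stayed among all other kept barcodes in the comparisons below. There were 135 members among the 4159 barcodes that passed the UMI and gene limits, of 4437 deposited. Replicate 1 held 62 members of 1843 kept barcodes, a share of 3.36% (exact Clopper-Pearson 95% interval 2.59 to 4.29). Replicate 2 held 73 of 2316, a share of 3.15% (2.48 to 3.95). The intervals overlap, and both cover counting error only. DBH, HAND2 and CNTN5 counts chose these barcodes, so the levels of those genes are given as a description.

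Both libraries belonged to 1 group, flushed chimeric embryos in which bovine embryonic stem cells (bESC) had been incorporated, so that donor and host cells could both be present. The embryos were dissociated with papain, cells were sorted by a gate not given in the sources used here, and 3′ libraries were made with the 10x Genomics v3.1 chemistry. Strain, donor cell line and GFP construct are not given in the sources used here, and neither is whether the 2 libraries stem from separate embryos or pools. Every p-value therefore rests on 2 libraries whose differences may be technical. It weighs how far the difference of members from other barcodes varied between the libraries, with a spread estimated largely from all genes together. Members had a median of 8075.5 UMI in replicate 1 and 7559 in replicate 2, against 5150 and 5879 in all other kept barcodes. A second comparator, called other neurons, held 550 non-members with at least 3 UMI of the neuronal RNA-binding genes ELAVL3 and ELAVL4. All had under 10 UMI of the 3 collagen genes. Their medians were 7221 and 7853 UMI, close to the members. A UMI of the progenitor gene SOX2 was seen in 50.8% and 52.0% of them, by replicate, against 11.3% and 24.7% of members. The set may therefore not hold neurons alone, which was not tested. Of 6 barcode sequences that the libraries shared, 0 were in the group, and no doublet caller was run. Of 84 barcodes above the 98th percentile of UMI, 3 were members.

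Noradrenergic neurons make noradrenaline from tyrosine. Tyrosine hydroxylase (TH) forms L-DOPA, aromatic L-amino acid decarboxylase (DDC) turns it into dopamine, and dopamine beta-hydroxylase (DBH) forms noradrenaline inside vesicles that the monoamine transporter SLC18A2 fills. In the embryo the sympathetic line of these neurons comes from the neural crest, and its identity is set by transcription factors that include PHOX2A, HAND2, GATA2 and GATA3.

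DBH marked the group by construction. The 308 DBH UMI of the kept barcodes all lay in members, at 307 and 291 CPM (a gene's UMI as a share of all UMI in the summed barcodes, on the usual CPM scale; values for replicates 1 and 2 are given in that order throughout). HAND2, a basic helix-loop-helix factor of sympathetic and cardiac cells, stood at 706 and 556 CPM in members, 39.1 and 52.7 in other neurons and 10.8 and 13.3 in all other barcodes. CNTN5, a contactin of neuronal surfaces, stood at 1666 and 1524 CPM in members, 173 and 129.5 in other neurons and 42.2 and 39.2 in all other barcodes. NCAM2, a neural adhesion molecule given as a marker alongside the rule, was at 1192 and 643 CPM in members, 159 and 122 in other neurons and 44.3 and 32.7 elsewhere. In members the 4 genes were thus above both comparators in both libraries, although single members differed widely. CNTN5 reached 71 UMI in 1 barcode of replicate 1 and 174 in 1 of replicate 2, while 18 and 13 members had none. NCAM2 was detected in 34 of 62 and 46 of 73 members. The collagen genes of the limit stood at 12.2 and 22.2 CPM for COL1A1, 10.2 and 22.2 for COL1A2 and 16.3 and 18.5 for COL3A1 in members, and 97 members had no UMI of any of them.

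Members met the criteria in 3 ways. The DBH criterion alone took in 45 members (19 and 26), both criteria 49 (24 and 25), and HAND2 with CNTN5 without DBH 41 (19 and 22). Near the limits the picture was graded. Of 15 members with exactly 1 DBH UMI that did not meet the other criterion, 6 had a UMI of PHOX2A and 6 of TH, which the rule did not use. Of 6 members with a DBH UMI and neither HAND2 nor CNTN5, 2 had PHOX2A, 1 had TH, 5 had a SOX2 UMI and 0 had NCAM2. Just outside, 1 of 10 barcodes with HAND2 and 1 or 2 CNTN5 UMI had PHOX2A and 5 had TH. With HAND2 and no CNTN5, 10 of 60 had PHOX2A and 6 had TH. With at least 3 CNTN5 UMI but neither HAND2 nor DBH, 3 of 86 had PHOX2A and 5 had TH. In members the figures were 81 and 83 of 135. There were 80 non-members with a PHOX2A UMI, 11 of them with HAND2, 28 with ELAVL4 and 44 with SOX2, and these stayed in the comparators.

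The label was checked on 7 noradrenergic and sympathetic markers outside the rule (TH, DDC, PHOX2A, GATA2, GATA3, SLC18A2 and SLC6A2). At least 3 of them were detected in 48.4% and 54.8% of members, 11.6% and 11.7% of other neurons, and 2.41% and 2.14% of all other barcodes. In a set of 805 barcodes with at least 2 SOX2 UMI and no ELAVL3 or ELAVL4 UMI, called SOX2 progenitors and chosen after the data were seen, the shares were 1.49% and 0.853%, at median depths of 6895.5 and 7720 UMI. In barcodes cut down at random to 2000 UMI each, 11.3% and 20.8% of members still showed 3 markers, against 4.86% and 3.72% of other neurons and 1.01% and 0.591% of all other barcodes. The marker panel was not uniform, as the plot of levels by library shows. TH and PHOX2A were high, while DDC and GATA2 were lower than in other neurons and SLC18A2 passed neither test. The group is therefore called by its rule genes.

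**Figure D1:**
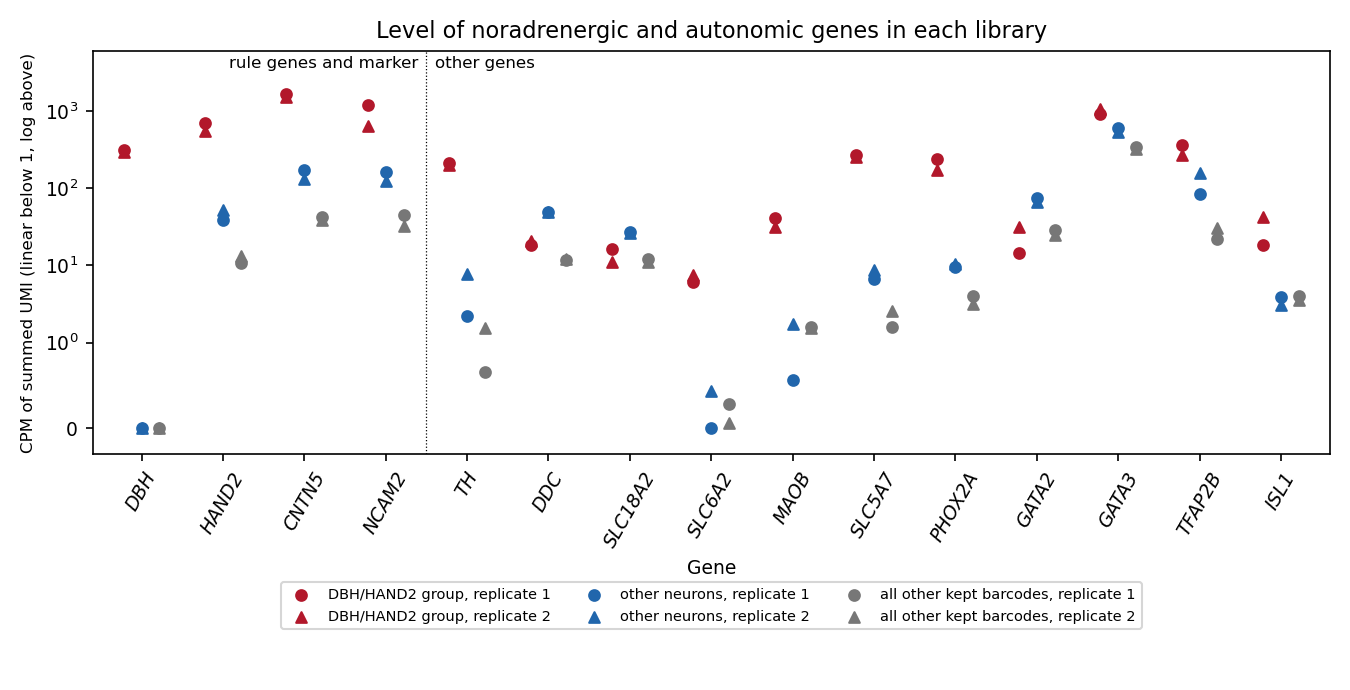
Level of each gene in CPM of summed UMI (vertical axis, linear below 1 and logarithmic above) in the DBH/HAND2 group (red), other neurons (blue) and all other kept barcodes (grey). Circles are replicate 1 and triangles replicate 2, and the dotted line separates genes used by the rule or given as a marker from the others. TH, SLC5A7, MAOB and PHOX2A of the group lie above both comparators in both libraries, whereas DDC and SLC18A2 lie below other neurons.

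Members carried more transcripts of TH, PHOX2A and the choline transporter SLC5A7 than either comparator. Genes were compared between the summed counts of members and of all other kept barcodes with edgeR's quasi-likelihood test, Benjamini-Hochberg adjusted over all genes tested, with library as a block. In all, 2353 of 13463 genes tested were called higher in the group (17.5%) and 2671 lower (19.8%), 37.3% in either direction, at an adjusted p under 0.05. DESeq2 on the same sums called 1289 and 1191, all of them among the edgeR calls. The same test against other neurons called 1645 of 10492 genes higher (15.7%) and 1577 lower (15.0%), 30.7% in either direction, and DESeq2 383 and 309, all but 1 of them among the edgeR calls. Against all other barcodes and other neurons in turn, 18 of 22 and 16 of 21 genes of synaptic vesicles and 16 of 20 and 14 of 20 ion channel genes were higher, while 9 of 15 and 10 of 12 Notch genes were lower. Cell cycle genes of G2 and M phase were lower in 18 of 20 and 15 of 19. The 2 comparisons share the member sums. Members were picked by counts of DBH, HAND2 and CNTN5 and by the collagen limit in single barcodes. Any gene that varies with those counts across cells therefore differs by that choice. A called gene describes the group rather than a response.

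Among the genes of noradrenaline synthesis and handling, TH led. TH stood at 209.6 and 198 CPM in members, 2.23 and 7.77 in other neurons and 0.661 and 1.56 in all other barcodes, and the lower member library was above every comparator sum. This was 184-fold over all other barcodes (log2 fold change 7.56 ± 0.29 (SE), adjusted p = 1.1e-10) and 40.8-fold over other neurons (log2 fold change 5.39 ± 0.28 (SE), adjusted p = 3.4e-18). Members held 93.6% and 82.3% of all TH UMI in the kept barcodes. A TH UMI was seen in 38 of 62 and 45 of 73 members, at a median of 1 UMI and at most 14 and 8. In all other barcodes the share with a TH UMI was 0.393% and 0.892%. In SOX2 progenitors, which should lack the gene, it was 0.298% in replicate 1 and 0 of 469 barcodes in replicate 2, which allows a share of up to 0.640%. Of the 94 members with DBH, 64 also had TH, and 22 members had neither.

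The other enzymes and transporters did not follow as a block. Of 10 tested genes of this list, 5 were called higher and 2 lower against all other barcodes, and 5 and 1 against other neurons, beside the background shares above. Higher were MAOB (40.7 and 31.5 CPM against 1.6 and 1.56, log2 fold change 4.62 ± 0.46 (SE), adjusted p = 2.8e-06) and MAOA (65.1 and 33.4 against 31.2 and 24.8), the monoamine oxidases that break down amines. QDPR, which recycles the cofactor of TH, was higher at 106 and 137 against 63.2 and 68 CPM, and CYB561, the cytochrome that keeps vesicular ascorbate reduced for DBH, at 18.3 and 18.5 against 5.66 and 7.24. These same 4 genes and TH were the 5 called against other neurons. Of the enzymes that build the TH cofactor, GCH1 was lower (42.7 and 24.1 against 73.1 and 56.9 CPM, adjusted p = 0.017), as was SPR (10.2 and 22.2 against 30.8 and 36.5, adjusted p = 0.048). PTS, the step between them, was at 30.5 and 57.5 CPM against 38.6 and 42.1 and did not pass (adjusted p = 0.45).

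DDC, the step between TH and DBH, was at 18.3 and 20.4 CPM in members, 11.8 and 12.1 in all other barcodes and 48.6 and 49.7 in other neurons. The difference from all other barcodes did not pass (adjusted p = 0.12), and against other neurons DDC was lower (log2 fold change -1.19 ± 0.33 (SE), adjusted p = 0.0048). Only 13 of 135 members had a DDC UMI, 11 of them with TH. The vesicular monoamine transporter SLC18A2 was at 16.3 and 11.1 CPM in members, 12 and 10.9 in all other barcodes and 26.8 and 26.3 in other neurons, and passed neither test (adjusted p = 0.54 and 0.13). The noradrenaline transporter SLC6A2 was at 6.1 and 7.41 CPM against 0.283 and 0.0676, too few counts to be tested. The vesicular transporter of chromaffin cells, SLC18A1, had 4.07 and 0 CPM and was not tested. PNMT, which turns noradrenaline into adrenaline, had no UMI in members, which allows a level of up to 2.91 CPM (3 counts of the 1030975 member UMI).

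The transcription factors of the autonomic line gave 6 genes higher and 2 lower of 10 tested against all other barcodes, beside 17.5% and 19.8% of all genes. Their median log2 fold change was 1.34 against -0.09 over all genes. PHOX2A, a homeodomain factor of noradrenergic neurons, stood at 238 and 172 CPM in members, 9.49 and 10.4 in other neurons and 3.96 and 3.18 in all other barcodes (log2 fold change 5.96 ± 0.21 (SE), adjusted p = 5.6e-11 against the last). Both member libraries were above every comparator sum. PHOX2A was detected in 81 members, 77 of which also had HAND2.

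GATA3, a zinc finger factor needed for sympathetic neuron differentiation, had the most UMI of the list, at 918 and 1042 CPM against 342 and 317 in all other barcodes and 594 and 536 in other neurons (log2 fold change 1.71 ± 0.10 (SE), adjusted p = 1.2e-08). It was not restricted to the group, since members held only 11.1% and 10.7% of the GATA3 UMI and 58.5% and 59.1% of all other barcodes had one. Its paralog GATA2 was at 14.2 and 31.5 against 28.4 and 24.5 CPM, which did not pass (adjusted p = 0.93), and was below other neurons (75.4 and 66.5, adjusted p = 0.00029). TFAP2B, an AP-2 factor of noradrenergic neurons, was at 356 and 269 against 22 and 30.2 CPM (log2 fold change 3.71 ± 0.20 (SE), adjusted p = 3.7e-09).

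ISL1, a LIM homeodomain factor of sympathetic, sensory and motor neurons, was higher at 18.3 and 42.6 against 3.96 and 3.52 CPM. Few members carried it: 5 of 62 and 5 of 73 had an ISL1 UMI, and 1 barcode held 13 of the 23 UMI in replicate 2. SOX11 and INSM1, factors of newly formed neurons and neuroendocrine cells, were higher than in all other barcodes (564 and 489 against 305 and 285 CPM, and 63.1 and 66.7 against 21.5 and 21.9). Against other neurons INSM1 was lower (106 and 111, adjusted p = 0.028) and SOX11 did not pass (682 and 673, adjusted p = 0.18). HAND1, the paralog of HAND2, had no UMI in members and 22.9 and 26.7 CPM in all other barcodes, at least 8.64-fold lower at 3 counts over both libraries. EBF1 was lower at 12.2 and 31.5 against 124 and 97.5 CPM and also against other neurons (526 and 469.8, log2 fold change -4.33 ± 0.24 (SE), adjusted p = 1.1e-17). MEIS1 was at 293 and 309.6 against 373 and 311 CPM, with no call (adjusted p = 0.82), and was lower than in other neurons (704 and 587). TLX2 was at 2.03 and 1.85 CPM and TLX3 at 0, and neither was tested. In all, 4 of 9 tested factors were higher and 4 lower against other neurons.

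Of 12 tested receptors for growth factors 5 were higher and 3 lower, beside 17.5% and 19.8% of all genes, so the falls were near the background. RET, the signalling receptor for GDNF ligands, was at 36.6 and 31.5 against 1.04 and 1.35 CPM (log2 fold change 4.92 ± 0.49 (SE), adjusted p = 2.5e-06), and its co-receptors GFRA1 (57 and 55.6 against 25.6 and 22.9) and GFRA2 (28.5 and 26 against 5.57 and 5.21) were higher as well. NTRK3, the receptor for neurotrophin-3, was 17.4-fold higher (181 and 169 against 10.3 and 9.81 CPM, log2 fold change 4.25 ± 0.19 (SE), adjusted p = 5.1e-10). ALK, a receptor tyrosine kinase of sympathetic precursors, was higher at 209.6 and 341 against 49.6 and 36.9 CPM. The neuregulin receptor ERBB4 was 20.5-fold lower (52.9 and 61.2 against 1316 and 1026 CPM, log2 fold change -4.21 ± 0.15 (SE), adjusted p = 6.8e-11), also against other neurons (1056 and 845). KIT was lower (6.1 and 5.56 against 31.7 and 25 CPM), and EDNRA, an endothelin receptor, had no UMI in members and 16.6 and 14.7 CPM elsewhere. RET, GFRA2, NTRK3 and ALK were the 4 of 10 tested that were also higher than in other neurons, and ERBB4, KIT and the neurotrophin receptor NGFR (4.07 and 9.27 against 18.4 and 21.6 CPM, adjusted p = 0.043) the 3 that were lower.

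A cholinergic gene stood beside TH. SLC5A7, the choline transporter that supplies acetylcholine synthesis, was at 271 and 252 CPM in members, 6.7 and 8.64 in other neurons and 1.6 and 2.57 in all other barcodes, with no overlap. This was 125-fold over all other barcodes (log2 fold change 7.04 ± 0.22 (SE), adjusted p = 1.6e-11) and 34.1-fold over other neurons (log2 fold change 5.20 ± 0.23 (SE), adjusted p = 1.1e-21). ACHE, which breaks acetylcholine down, was higher at 26.5 and 42.6 against 6.14 and 4.53 CPM (log2 fold change 2.86 ± 0.42 (SE), adjusted p = 9.3e-05). The vesicular acetylcholine transporter SLC18A3 was at 12.2 and 7.41 against 0.0944 and 0.203 CPM and the synthetic enzyme CHAT at 2.03 and 0 against 0.189 and 0.338, neither with enough counts to be tested. SLC5A7 and TH met in single barcodes: of 83 members with TH 48 had SLC5A7, a share of 57.8%, and of the 52 members without TH 53.8% had it. By DBH the shares were further apart. Of 94 members with DBH 45 had SLC5A7 (47.9%), against 75.6% of those without DBH, a difference that was not tested. SLC18A3 was seen in 6 members, 5 of them with SLC5A7.

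Nicotinic receptor subunits gave 1 call of 3 tested, CHRNA7 (81.4 and 44.5 against 25.8 and 20.6 CPM, log2 fold change 1.55 ± 0.25 (SE), adjusted p = 0.00019). CHRNA3, the subunit of ganglionic receptors, was at 4.07 and 11.1 against 2.27 and 2.3 CPM and did not pass (adjusted p = 0.062). Of 5 genes of other transmitters 1 was higher and 0 lower, and against other neurons 0 and 3. Over all genes 17.5% were higher and 19.8% lower, and 15.7% and 15.0% against other neurons, so 1 rise of 5 was near the background. The vesicular glutamate transporter SLC17A6 was the rise, at 20.3 and 13 against 4.34 and 3.72 CPM (log2 fold change 2.16 ± 0.53 (SE), adjusted p = 0.0054), and did not pass against other neurons (22.9 and 19.9 CPM, adjusted p = 0.73). The GABA enzymes GAD1 and GAD2 and the glycine transporter SLC6A5 each had 1 UMI in all members together, and all 3 were lower than in other neurons, GAD2 at 0 and 1.85 against 35.7 and 27.2 CPM (log2 fold change -4.74 ± 0.77 (SE), adjusted p = 5.2e-06).

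Most granule protein genes were higher than in all other barcodes. Of 14 tested genes of peptides and dense-core granules 9 were higher and 1 lower, with a median log2 fold change of 2.03. Over all genes 17.5% were higher and 19.8% lower, and 15.7% and 15.0% against other neurons. Against other neurons 6 of 11 were higher and 3 lower, the last being the peptide genes SST, PENK and TAC1. CHGA, chromogranin A, was at 498 and 530.1 CPM against 58.6 and 61 in all other barcodes and 85.5 and 105 in other neurons (log2 fold change 3.24 ± 0.12 (SE), adjusted p = 6.8e-11 against the first). SCG3 (498 and 463 against 62.3 and 71.9 CPM), SCG5 (329.6 and 380.0 against 91.3 and 94.7), PCSK1N (547 and 614 against 126 and 173) and the processing enzyme CPE (383 and 347 against 94.5 and 91.8) were higher with it, and all 5 were also called higher than in other neurons. SCG2 was higher than in all other barcodes but did not pass against other neurons (85.5 and 72.3 against 123 and 106 CPM, adjusted p = 0.13). NPY, the peptide that sympathetic neurons release with noradrenaline, was at 6.1 and 9.27 against 1.89 and 4.94 CPM and did not pass (adjusted p = 0.17). Galanin (GAL) was higher at 18.3 and 22.2 against 4.34 and 7.31 CPM, and proenkephalin (PENK) was lower at 6.1 and 5.56 against 71.6 and 44.4 CPM.

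Genes of neuronal structure and release were mostly higher in both comparisons. Of 21 cytoskeletal and RNA-binding genes 20 were higher and 0 lower, with a median of 2.28, and against other neurons 13 of 19 were higher and 2 lower. STMN2, a tubulin-binding protein of growing axons, was at 3343 and 3711 CPM, against 371 and 464 in all other barcodes and 1328 and 2059.6 in other neurons. The intermediate filament INA (802 and 779 against 38.7 and 50.9 CPM, log2 fold change 4.28 ± 0.14 (SE), adjusted p = 1.7e-11) and the axonal proteins MAPT (279 and 278 against 29.6 and 26.7) and GAP43 (1509.7 and 1425 against 169 and 229.9) were higher in both comparisons. Peripherin (PRPH), a filament typical of peripheral neurons, was at 161 and 152 CPM in members, 11.7 and 22.5 in other neurons and 13.9 and 21.4 in all other barcodes (log2 fold change 3.31 ± 0.24 (SE), adjusted p = 5.6e-14 against other neurons). MAP2, the dendritic protein, was lower than in other neurons (1245 and 1160.4 against 1689 and 1655 CPM, adjusted p = 0.016), as was NEFH. ELAVL3 and ELAVL4, which chose the other neurons, were 3.73- and 4.39-fold over all other barcodes. TUBA1A, an alpha tubulin, had the most UMI of the list, at 4822 and 5963 against 1351 and 1584 CPM.

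Of 22 genes of synaptic vesicles and release 18 were higher and 1 lower, and 16 of 21 and 1 against other neurons. SV2C, a vesicle glycoprotein, was at 140.4 and 96.4 CPM in members, 2.79 and 5.18 in other neurons and 1.32 and 2.37 in all other barcodes (log2 fold change 6.06 ± 0.35 (SE), adjusted p = 9.1e-09 against the last). SYT1, the calcium sensor of release, was at 1644 and 1464 against 482 and 463 CPM, CPLX2, a complexin, at 124 and 117 against 11.3 and 9.13, and RAB3A, a vesicle GTPase, at 81.4 and 57.5 against 6.23 and 8.66. The gene called lower was NRXN3, a presynaptic adhesion molecule, at 69.2 and 64.9 CPM in members, 387 and 259 in all other barcodes and 1351 and 839.8 in other neurons (log2 fold change -3.85 ± 0.17 (SE), adjusted p = 6.0e-22 against other neurons).

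Of 20 voltage-gated channel genes 16 were higher and 2 lower, and 14 and 1 against other neurons. SCN9A, a sodium channel of peripheral neurons, was at 214 and 248 CPM in members, 25.4 and 18.5 in all other barcodes and 41.3 and 26.8 in other neurons (log2 fold change 2.94 ± 0.19 (SE), adjusted p = 2.5e-15 against other neurons). SCN3A (492 and 371 against 76.3 and 67.8 CPM), the calcium channel subunits CACNA1B (155 and 111 against 14.3 and 12) and CACNA2D1 (2057 and 2050.1 against 293 and 250.2) and the potassium channels KCND2 (462 and 285 against 42.8 and 29.7) and KCNH7 (77.3 and 68.6 against 6.32 and 3.79) were higher in both comparisons. KCND3, another potassium channel of the KCND2 family, was lower (4.07 and 1.85 against 32.5 and 31.2 CPM, log2 fold change -3.31 ± 0.53 (SE), adjusted p = 0.00023).

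**Figure D2:**
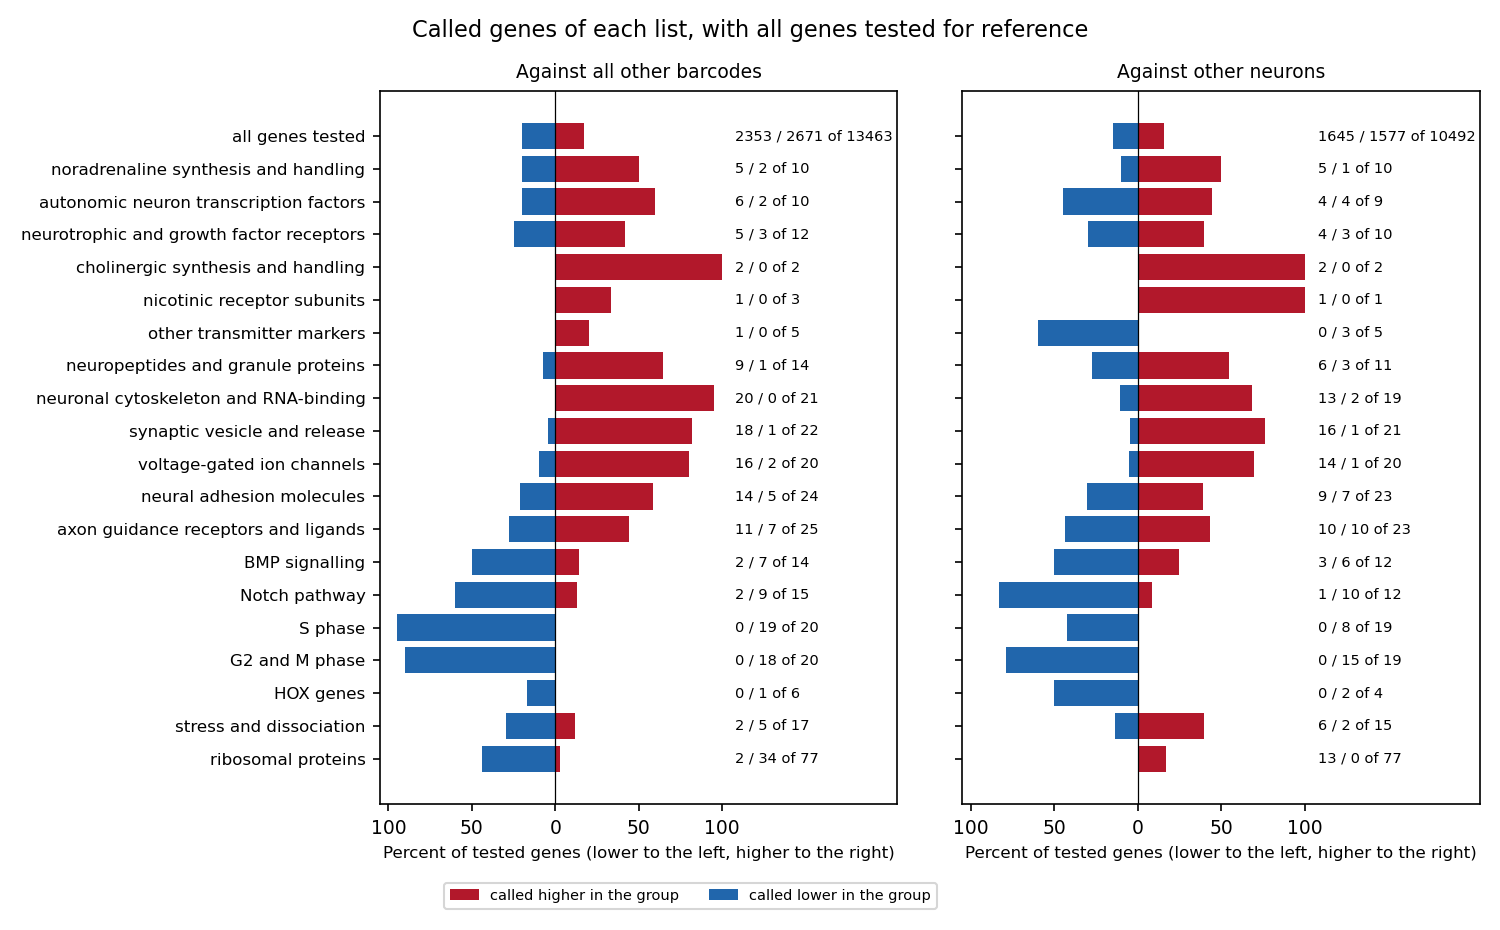
Share of tested genes of each list called higher (red, to the right) or lower (blue, to the left) in the DBH/HAND2 group at an adjusted p under 0.05, against all other barcodes (left panel) and other neurons (right panel), with all genes tested in the top bar. Numbers give genes higher, genes lower and genes tested; vesicle and channel genes lie mostly to the right and Notch and cell cycle genes to the left in both panels.

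Adhesion and guidance genes changed in both directions. Of 24 tested adhesion genes 14 were higher and 5 lower, beside 17.5% and 19.8% of all genes, so the falls were near the background. Against other neurons 9 of 23 were higher and 7 lower, beside 15.7% and 15.0%. PCDH9, a protocadherin, was at 4954 and 4528 CPM in members, 354 and 200.4 in all other barcodes and 1511 and 730.1 in other neurons. NRCAM, an axonal adhesion molecule, was at 2106 and 2000.05 CPM in members, 101 and 96.7 in all other barcodes and 321 and 319.5 in other neurons (log2 fold change 2.83 ± 0.12 (SE), adjusted p = 5.1e-23 against other neurons). NCAM1, the paralog of NCAM2, was 4.33-fold over all other barcodes (2208 and 2000.05 against 534 and 439 CPM). OPCML (14.2 and 5.56 against 129 and 136), NTM (8.14 and 14.8 against 107 and 92.9), DSCAM (83.4 and 46.3 against 213 and 183) and CHL1 (34.6 and 20.4 against 86.2 and 78.7), all adhesion molecules of neurons, were lower in both comparisons.

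Of 25 guidance genes 11 were higher and 7 lower, beside 17.5% and 19.8% of all genes. Against other neurons 10 of 23 were higher and 10 lower, beside 15.7% and 15.0%. ROBO1, a receptor for SLIT ligands, had the most UMI of the list, at 6842 and 5018 CPM, against 626 and 496 in all other barcodes and 1970.4 and 1268 in other neurons (log2 fold change 2.04 ± 0.10 (SE), adjusted p = 1.0e-20). ROBO2, its paralog, was at 224 and 311 against 389 and 335 CPM and was lower than in other neurons (983 and 839, log2 fold change -1.62 ± 0.14 (SE), adjusted p = 1.1e-11). UNC5D, a netrin receptor of the repulsive class, was at 1819 and 1368 CPM against 172 and 156, and DCC, the attractive netrin receptor, at 122 and 94.5 CPM against 503 and 524 in other neurons, where it was lower (log2 fold change -2.10 ± 0.17 (SE), adjusted p = 2.0e-13). SEMA3A, a repulsive semaphorin, was lower in both comparisons (2.03 and 5.56 against 25.3 and 29.3 CPM). Among semaphorin receptors, NRP2 (275 and 237 against 31 and 41.2 CPM), NRP1 (236 and 145 against 83.3 and 83.1) and PLXNA4 (686 and 688 against 76.2 and 74.3), which pairs with neuropilins, were higher in both comparisons. SLIT3 was higher (588 and 409.6 against 127 and 124 CPM) and SLIT2 lower (73.2 and 33.4 against 516 and 534), both secreted ligands of ROBO receptors. The ephrin receptors EPHA3, EPHA4 and EPHA7 were lower in both comparisons, EPHA3 at 2.03 and 7.41 against 66.6 and 61 CPM.

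Genes of the BMP and Notch pathways, which act on sympathetic precursors, were more often lower than higher. Of 14 BMP genes 2 were higher and 7 lower, beside 17.5% and 19.8% of all genes. Against other neurons 3 of 12 were higher and 6 lower, beside 15.7% and 15.0%. The BMP-induced ID1 (275 and 386 against 817 and 948 CPM), ID2, ID3 and ID4 and the receptors BMPR1A (140.4 and 117 against 402 and 348) and BMPR1B (20.3 and 11.1 against 398 and 348, log2 fold change -4.45 ± 0.23 (SE), adjusted p = 2.1e-09) were lower in both comparisons. The transducers SMAD1 (199 and 154 against 117 and 98.2 CPM) and SMAD9 (222 and 245 against 107 and 91.3) were higher in both. BMP4 had no UMI in members, and BMP7 was higher than in other neurons (22.4 and 16.7 against 5.58 and 3.45 CPM, adjusted p = 0.00098).

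Of 15 Notch genes 2 were higher and 9 lower, with a median of -2.23, or -2.08 with genes that had no member UMI set to their bound. The receptors NOTCH1, NOTCH2 and NOTCH3, the ligand JAG1 and the target HES1 were lower in both comparisons, NOTCH2 at 2.03 and 1.85 against 70.6 and 67.7 CPM and HES1 at 2.03 and 11.1 against 128 and 116. HES6, a HES family member that rises in differentiating neurons, was higher than in all other barcodes (118 and 133 against 61.4 and 54) and lower than in other neurons (265 and 221). JAG2, a Notch ligand, was higher in both (18.3 and 14.8 against 6.8 and 4.8 CPM). Against other neurons 1 of 12 was higher and 10 lower.

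Nearly all proliferation genes were lower than in all other barcodes. Of 20 S phase genes 0 were higher and 19 lower, and of 20 genes of G2 and M phase 0 and 18, with medians of -1.52 and -2.83 (-2.63 with bounds for the latter). MKI67, a marker of cycling cells, was at 4.07 and 5.56 CPM against 84.9 and 75.6 in all other barcodes and 38.5 and 33.2 in other neurons, and both differences passed. TOP2A, the topoisomerase of dividing cells, was at 20.3 and 22.2 CPM in members, 199 and 193 in all other barcodes and 94.4 and 103 in other neurons. PCNA, the DNA polymerase clamp, was lower than in all other barcodes (38.7 and 63 against 88.4 and 89.1 CPM) and did not pass against other neurons (adjusted p = 0.75). Against other neurons 8 of 19 S phase genes and 15 of 19 G2 and M phase genes were lower, and 0 were higher in either list.

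HOX genes, whose paralog number follows the position along the body axis, were detected in members only from groups 1 to 3. All 29 genes of paralog groups 4 to 13 with a row in the table had 0 UMI in the 1030975 UMI of members, which allows 2.91 CPM in all (3 counts), while all other barcodes summed to 22.7 and 29.8 CPM and other neurons to 3.35 and 2.59. The bound is close to the level in other neurons, so a difference from those was not detectable at this depth. The 8 genes of groups 1 to 3 summed to 95.6 and 90.8 CPM in members, 97.2 and 99.3 in all other barcodes and 198.8 and 206.4 in other neurons. HOXA2 (44.8 and 38.9 CPM) and HOXB2 (44.8 and 48.2) held most of these UMI. HOXA3 was lower than in all other barcodes (0 and 1.85 against 19.4 and 19.3 CPM, log2 fold change -4.16 ± 0.84 (SE), adjusted p = 0.0013), and HOXB2 and HOXA3 were lower than in other neurons.

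The genes with the widest differences from all other barcodes include several outside these lists. Among the 16 leading rises, besides TH, SLC5A7, SV2C, PHOX2A and NRCAM, were NYAP2, GPR22, CALY, PCDH15, KCNIP4, MARCHF11, NRSN1, ST8SIA3, FMN1 and SLC7A14. GPR22, an orphan receptor, was at 116 and 145 CPM against 3.68 and 4.6 (log2 fold change 5.10 ± 0.26 (SE), adjusted p = 2.0e-09), and PCDH15, a protocadherin best known from hair cells, at 372 and 437 against 15.6 and 16.4 (log2 fold change 4.80 ± 0.15 (SE), adjusted p = 1.3e-11). CALY, a vesicle protein that interacts with the D1 dopamine receptor, was at 81.4 and 81.6 against 3.4 and 2.03 CPM (log2 fold change 5.07 ± 0.34 (SE), adjusted p = 4.1e-08). FMN1, a formin that nucleates actin, was at 523 and 343 against 28.6 and 18.9 CPM. KCNIP4, a potassium channel-interacting protein, differed between the libraries, at 1530.0 and 475 CPM in members against 43.6 and 39.6 (log2 fold change 4.54 ± 0.57 (SE), adjusted p = 0.027). Its call was lost under 6 alternatives, with adjusted p from 0.13 to 0.27 and log2 fold changes from 4.17 to 5.00.

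The 10 leading falls were chosen by the same rule. ANGPT1, the angiopoietin ligand, had no UMI in members against 81.4 and 68.5 CPM, at least 25.4-fold lower. DESeq2 gave it an adjusted p of 0.20. S100G, a vitamin D-dependent calcium-binding protein, was at 4.07 and 0 against 207 and 111 CPM, and the protease inhibitor A2M at 2.03 and 0 against 70.8 and 104. PAGE4, THSD4, DAB2, FREM1, ADAMTS6 and COL4A5 were each at 0 to 3.71 CPM in members, and NOTCH2 completed the set.

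**Figure D3:**
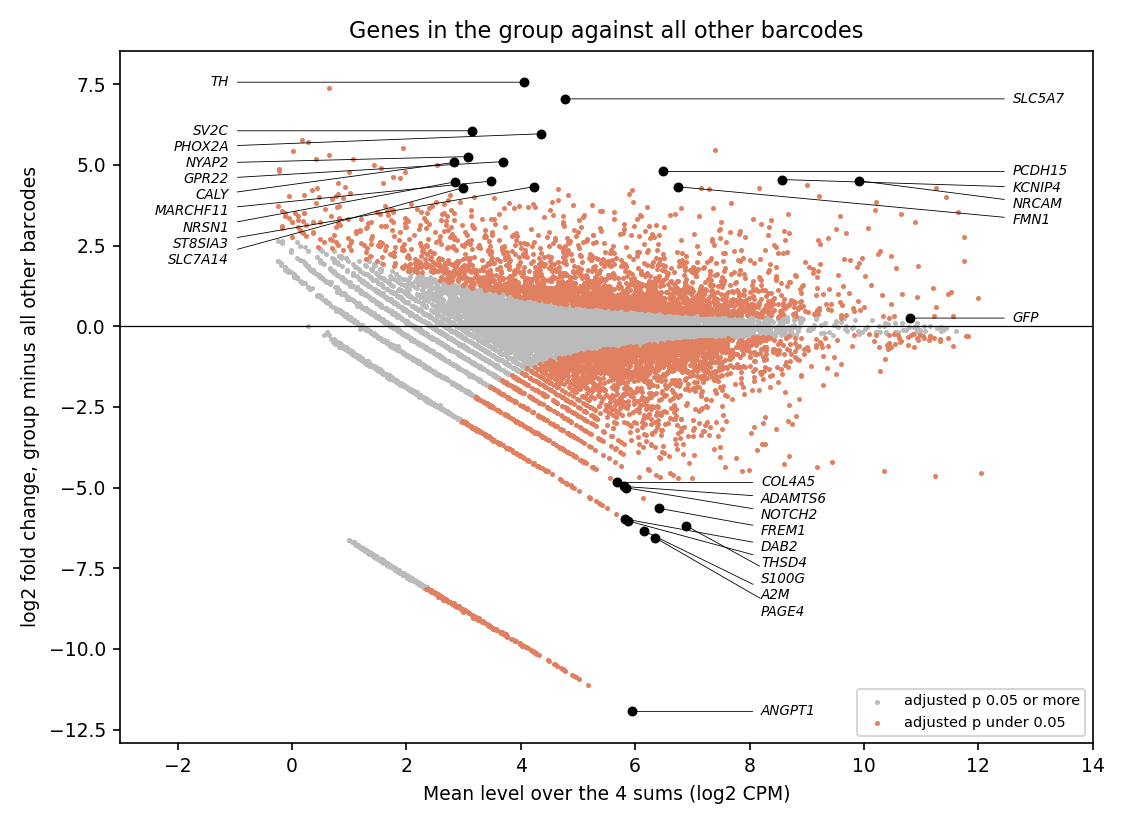
Fold change of each tested gene between the DBH/HAND2 group and all other barcodes (vertical axis, log2) against its mean level over the 4 sums (horizontal axis, log2 CPM), without the 6 genes of the rule and NCAM2. Orange points had an adjusted p under 0.05 and grey points did not; black points name leading rises and falls and GFP, and the lower diagonal bands are genes with 0 or few UMI in the group. TH and SLC5A7 lie at 7.56 and 7.04, and GFP at 0.25.

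Against other neurons the leading rises were TH, SLC5A7, SV2C, GPR22, PHOX2A, FMN1, GRP, ESRRG, RYR3 and RFTN1. ESRRG, an orphan nuclear receptor, was at 918 and 617 CPM against 70.9 and 37.1 (log2 fold change 4.01 ± 0.16 (SE), adjusted p = 1.6e-23), and RYR3, a calcium release channel, at 625 and 387 against 38.5 and 35.8 (log2 fold change 3.87 ± 0.17 (SE), adjusted p = 4.8e-21). GRP, gastrin-releasing peptide, was at 157 and 187 against 17.3 and 6.04 CPM. The leading falls were EBF2, EYA2, PENK, EPHA3, GLRA1 and RELN. EBF2 had no UMI in members and 87.1 and 117 CPM in other neurons, at least 35.8-fold lower, with an adjusted p of 0.30 in DESeq2. GLRA1, a glycine receptor subunit, was at 0 and 3.71 against 98.3 and 80.7 CPM and RELN, the secreted protein reelin, at 4.07 and 9.27 against 374 and 236. Markers of neurons with ONECUT and EBF factors summed to 924.9 and 976.3 CPM in other neurons, 333.7 and 192.8 in members and 225.0 and 212.0 in all other barcodes. Against other neurons 6 of 8 tested were lower and 0 higher, and against all other barcodes 3 were lower and 2 higher.

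Marker lists of other cell types ranged from near 0 to over 1000 CPM in members. Of 8 markers of neural crest and Schwann precursors, SOX10, FOXD3, CDH19, SNAI2 and TFAP2A had no UMI. The list summed to 8.14 and 14.8 CPM against 40.2 and 38.2 in all other barcodes. A gene with no UMI in members could still stand at up to 2.91 CPM (3 counts), here and in the lists below. SOX10 was at only 0.0944 and 0.203 CPM in all other barcodes, so its 0 cannot show a difference. Only 4 of the 8 had enough counts to be tested, of which 2 were lower and 0 higher. Of 10 sensory neuron markers 6 had no UMI, POU4F1, NEUROD1 and RUNX3 among them, and the sum was 12.2 and 5.56 CPM against 74.1 and 72.5. Of 5 motor neuron markers MNX1, LHX3, LHX4 and OLIG2 had none. All 5 together summed to only 18.7 and 16.2 CPM in all other barcodes, most of it TBX20, the 1 gene with enough counts to be tested. The absence of the other markers therefore shows no difference. TBX20, a T-box factor of cranial motor neurons and heart, was at 28.5 and 33.4 CPM against 17.2 and 15.2 (log2 fold change 1.08 ± 0.32 (SE), adjusted p = 0.016) and above other neurons (19 and 4.75). Of 9 cardiac markers, included because HAND2 also acts in the heart, NKX2-5, TBX5, GATA4, GATA5, GATA6 and MYH6 had no UMI. Trophoblast markers summed to 2.03 and 3.71 CPM in members and 6.14 and 3.45 in other neurons, against 346.1 and 131.2 in all other barcodes. Markers of plasma protein endoderm summed to 71.2 and 129.8 CPM in members and 83.8 and 122.6 in other neurons, against 1093 and 1864.

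Transcripts typical of other cells were measurable. Erythroid markers summed to 463.9 and 489.4 CPM in members, 545.7 and 422.7 in other neurons, and 9724 and 15726 in all other barcodes, and 7 members had 10 or more globin UMI. Mesenchyme markers summed to 160.7 and 248.4 CPM in members and 159.2 and 246.1 in other neurons, against 750.9 and 1079 in all other barcodes. Of 11 tested 7 were lower and 0 higher than in all other barcodes. Members and other neurons were both held under the collagen limit and all other barcodes were not. These mesenchyme falls and the near-equal sums are therefore a description only. DCN, the matrix proteoglycan decorin, made up most of the sum, at 116 and 145 CPM in members, 151 and 288 in all other barcodes, against which it was lower, and 9.49 and 57.4 in other neurons, against which it did not pass (adjusted p = 0.075). Neural progenitor markers, of which 0 were without UMI, summed to 1160 and 1624 CPM in members, 2537 and 2765 in other neurons and 3451 and 3824 in all other barcodes. Against the last 7 of 11 were lower and 1 higher, and SOX2 differed between libraries at 18.3 and 85.3 CPM in members. There were 8 members with at least 3 SOX2 UMI. For ribosomal proteins 77 genes were tested. Against all other barcodes 34 fell and 2 rose, beside 19.8% and 17.5% over all genes. Against other neurons 13 rose and 0 fell, beside 15.7% and 15.0%, so the rises there were near the background. Of 17 genes of stress and dissociation, 2 were higher and 5 lower against all other barcodes, and 6 and 2 of 15 against other neurons. The same shares over all genes stand beside these counts, and apart from the 6 rises the counts were not far from them. The immediate-early gene FOS was at 234 and 211 CPM against 132 and 133 in other neurons, where it was higher, and 249 and 304 in all other barcodes, where it did not pass (adjusted p = 0.35). The part of stress genes and of other cells' RNA in the differences above was not tested.

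Members also differed among themselves. The 94 members with DBH were compared with the 41 chosen by HAND2 and CNTN5 without DBH, a split in which the second set has CNTN5 by rule. Of 5318 genes tested 20 were higher in the DBH members (0.376%) and 44 lower (0.827%), 1.2% in either direction, and DESeq2 called 18 in all. The leading noradrenergic genes did not pass: TH was at 251 and 226 CPM with DBH and 110.3 and 129.8 without (log2 fold change 1.01 ± 0.29 (SE), adjusted p = 0.13) and PHOX2A at 289 and 184 against 117 and 143 (adjusted p = 0.19). Both were above in both libraries, so a missed threshold does not show that the sets are alike. SLC5A7 was at 254 and 252 CPM with DBH and 310.2 and 253 without (log2 fold change -0.13, adjusted p = 0.84). It was detected in 47.9% of members with DBH and 75.6% of those without.

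TFAP2B was higher in the DBH members at 496 and 332 CPM against 20.7 and 110.3 (log2 fold change 2.63 ± 0.45 (SE), adjusted p = 0.019). The other leading genes in this direction were the glutamate receptor GRM8 (95.3 and 80.4 against 6.89 and 6.49 CPM), DCN (159 and 192 against 13.8 and 26), and the transcription regulators DACH2 (156 and 226 against 41.4 and 13) and BNC2 (170.3 and 184 against 34.5 and 38.9). None of these 5 calls was kept by DESeq2, with adjusted p from 0.072 to 0.76. Higher without DBH were PRUNE2 (199.9 and 149 against 11.5 and 5.19 CPM, log2 fold change -4.31 ± 0.44 (SE), adjusted p = 0.0027), the axonal protein NTNG1 (276 and 266 against 40.4 and 54.5), CA10 (331 and 234 against 66.4 and 49.3), a carbonic anhydrase-related ligand of neurexins, and the splicing regulator KHDRBS2 (717 and 383 against 147 and 83), all 4 also called by DESeq2. SYT9, a synaptotagmin (89.6 and 104 against 23.1 and 13 CPM), was not (adjusted p = 0.72). The SLIT receptor ROBO1 was lower in the DBH members at 3706 and 3669 CPM against 14332 and 8392 (log2 fold change -1.55 ± 0.22 (SE), adjusted p = 0.011). Its paralog ROBO2 was higher there at 277 and 379 CPM against 96.5 and 143 (log2 fold change 1.48 ± 0.28 (SE), adjusted p = 0.027).

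Levels also differed over the 3 ways of qualifying. TFAP2B was at 448 and 410.1 CPM with the DBH criterion only, 531 and 258 with both criteria and 20.7 and 110.3 with HAND2 and CNTN5 only. NCAM2 ran the other way, at 296 and 352 CPM with DBH only, 889 and 643 with both and 2509 and 999.5 with HAND2 and CNTN5 only. TH was highest where both criteria were met, at 293 and 233 CPM, against 193 and 218 with DBH only and 110.3 and 129.8 without DBH. It was detected in 83.3% and 80.0% of members with both criteria, and in 52.6% and 53.8% with DBH only. The set with both criteria was also deeper, at medians of 9322.5 and 8793 UMI against 7720 and 6740.5 with DBH only. At 2000 UMI per barcode the TH shares were 54.2% and 40% with both criteria and 26.3% and 40% with DBH only. PRPH was highest in the set without DBH, at 365 and 227 CPM, against 82.7 and 186 with DBH only and 69.5 and 60.7 with both. TFAP2B and NCAM2 occurred together in 29 members, TFAP2B alone in 32 and NCAM2 alone in 51. These subsets hold 19 to 26 barcodes per library, and their differences were not tested beyond the split by DBH.

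**Figure D4:**
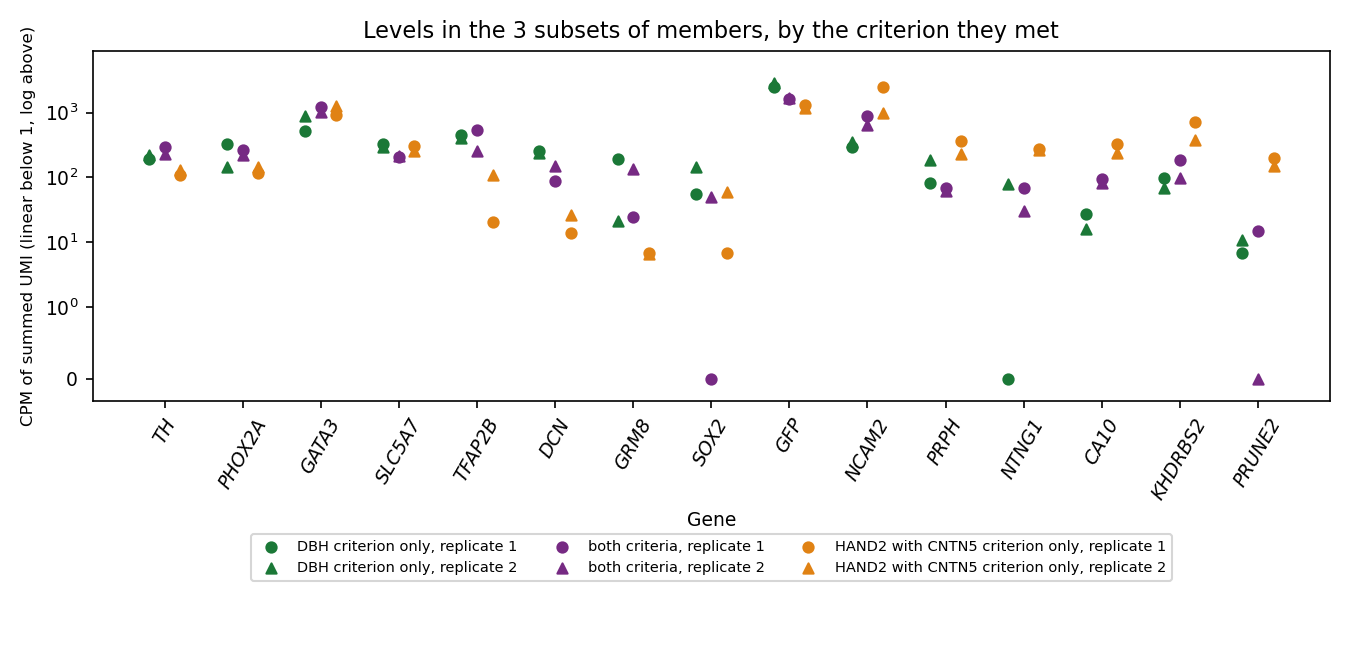
Level of selected genes in CPM of summed UMI (vertical axis, linear below 1 and logarithmic above) in members that met the DBH criterion only (green), both criteria (purple) or HAND2 with CNTN5 only (orange). Circles are replicate 1 and triangles replicate 2. TFAP2B, DCN and GFP lie lower, and NCAM2, NTNG1, CA10, KHDRBS2 and PRUNE2 higher, in the orange set than in the green set in both libraries.

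GFP, the reporter row of the table, was read in the same way. Members had 1776 and 1933 CPM of GFP, other neurons 1753 and 2183 and all other barcodes 1629 and 1788. In these sums the difference from all other barcodes was small (log2 fold change 0.25 ± 0.08 (SE), adjusted p = 0.028) and that from other neurons did not pass (log2 fold change 0.07 ± 0.10 (SE), adjusted p = 0.66). The first call was kept in 5 of the alternatives tried, with a log2 fold change of 0.42 for the members with DBH and 0.49 in barcodes thinned to 2000 UMI. It was lost in 7, and with members that met both criteria the log2 fold change was -0.0057. Medians per barcode were further apart than the sums, which was not tested. They were 1478 and 1616 CPM in members, 800 and 1115 in other neurons and 587 and 702 in all other barcodes. Single barcodes reached 39472.5 and 28643 CPM in all other barcodes, against 5468 and 6190 in members. The shares of barcodes with a GFP UMI were 91.9% and 98.6% in members and 77.9% and 77.5% in all other barcodes. At 2000 UMI per barcode they were 80.6% and 94.4% against 64.2% and 66.1%, and 81.5% and 79.8% in SOX2 progenitors. Most barcodes of every set thus held GFP transcripts, and whether a GFP UMI marks a donor cell was not tested.

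Within the group GFP levels were uneven. Members with the DBH criterion only had 2468 and 2817 CPM, those with both 1609 and 1689.9 and those with HAND2 and CNTN5 only 1317 and 1168, an order seen in both libraries. In replicate 2, however, 4 of the 26 members with the DBH criterion only had at least 3 SOX2 UMI and carried 55.0% of the GFP UMI of that set. Without members of at least 3 SOX2 UMI the replicate 2 levels were 1809, 1629 and 1131 CPM, so that the first 2 sets were close, and the replicate 1 levels were 2497, 1609 and 1317 CPM. The 94 members with DBH had 1969 and 2239 CPM of GFP against 1317 and 1168 in the 41 without, which did not pass (log2 fold change 0.78 ± 0.19 (SE), adjusted p = 0.088). In the DBH criterion set the 3 barcodes with most GFP carried 35.8% and 45.4% of its GFP UMI.

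**Figure D5:**
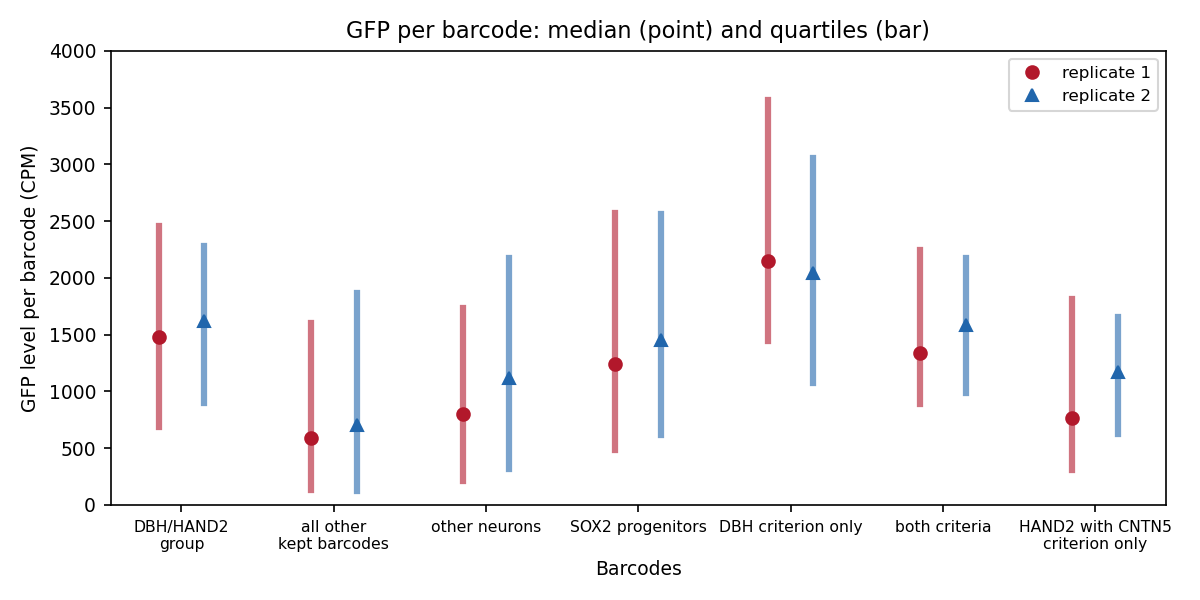
GFP level per barcode in CPM (vertical axis): points are medians and bars run from the lower to the upper quartile, for replicate 1 (red circles) and replicate 2 (blue triangles) in each set of barcodes. Medians of the group were 1478 and 1616 CPM, against 1243 and 1457 in SOX2 progenitors, 800 and 1115 in other neurons and 587 and 702 in all other kept barcodes.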

How the data were processed

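The authors deposited raw UMI counts per gene and barcode for both libraries. Per the submitters' processing notes, Cell Ranger (no version given), the bosTau9 genome, R 4.1.2 and Seurat 4.3.0 were used, with no role stated for each. The table held 17846 genes and 4437 barcodes, and 0 columns of other samples. Barcodes with at least 1000 UMI and 500 genes were kept, and no doublet caller was run. Printed intervals and floors hold counting error alone.

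Counts were summed per library over members, over all other kept barcodes, over other neurons, and over members with and without DBH. Each pair of sums was fitted with edgeR 4.0.16 in R 4.3.3 (quasi-likelihood test, TMM scaling, filterByExpr, robust estimation, library as a block because both sums of a library were prepared together), with Benjamini-Hochberg adjustment over all genes tested. Each fit had 4 sums and 1 residual degree of freedom, so its estimate of spread leans on all genes. DBH, HAND2, CNTN5, the 3 collagen genes and NCAM2 were described and not counted among calls, nor were ELAVL3 and ELAVL4 against other neurons. CPM is a sum divided by its total UMI; log2 fold changes also carry the TMM scaling, so values near 0 can differ in sign from the CPM ratio. DESeq2 1.42.0, limma 3.58.1 (prior count 2), other scaling, no count filter, no block, other memberships and thinning to 2000 UMI were alternatives.

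The members and gene lists were chosen with earlier results of these data known. Leading genes were the 16 largest rises and 10 largest falls against all other barcodes, the 10 and 6 against other neurons, and 5 each way between members with and without DBH. They had to pass the adjusted p of 0.05, go the same way in both libraries and reach 50 CPM in both libraries of the higher arm. List genes with the most UMI or the largest change were named as examples, and other list genes were named for their known roles after their values were seen. Some genes of these lists and markers are not reported here and were left out of the lists. The edgeR step was tested on simulated counts. Changes were given only to a small set of genes with enough expected counts, far fewer genes than were called against either comparator. The spread was that of the same fits, and the simulated libraries differed in depth alone. The rates below therefore do not cover genes with few counts. Against all other barcodes 64.5% of genes changed 2-fold and 90.7% of those changed 4-fold were found, among 13204 genes with 8 false calls, against other neurons 53.3% and 83.9% among 10213 with 6, and between the members with and without DBH 37.8% and 94.6% among 4928 with 4. Sequences and coordinates of these genes were not used here.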

Additional observations from a re-analysis of the deposited data

How the results depend on the processing

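The values below stand beside 2353 higher and 2671 lower genes against all other barcodes. DESeq2 called 1289 and 1191, members meeting both criteria 1238 and 1677, and barcodes thinned to 2000 UMI 1237 and 1515. Against other neurons (1645 and 1577), DESeq2 called 383 and 309, a comparator with at least 5 UMI of ELAVL3 and ELAVL4 657 and 703, and thinned barcodes 854 and 731. Without the replicate block, which pairs the sums of a library, the counts were 2314 and 2666, and 1178 and 1212. Between members with and without DBH (64), no filter on low counts gave 223 calls, DESeq2 18 and no replicate block 102. In each of these settings 0 genes were called opposite to the values reported. Some settings leave fewer members or UMI, and the cause of these changes was not tested. A single library leaves no residual degree of freedom, so leaving out a replicate gave no count of calls.

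The GFP log2 fold change of 0.25 (edgeR adjusted p = 0.028) was 0.24 with DESeq2 size factors (adjusted p = 0.054), 0.24 in DESeq2 (0.12), 0.25 with no replicate block (0.46), 0.10 with at least 2 DBH UMI (0.32), 0.22 with no collagen limit (0.13), 0.086 without the top UMI barcodes (0.69) and 0.14 without members that had DBH but neither HAND2 nor CNTN5 (0.27). This last setting was added after the data were seen. With both criteria it was -0.0057 (0.98). The call was kept with barcodes thinned to 2000 UMI (0.49, 0.00026), with DBH required (0.42, 0.00076), with a comparator without HAND2 or CNTN5 barcodes (0.23, 0.024), with no filter on low counts (0.22, 0.045) and in limma-trend (0.25, 0.046). Leaving out 1 library gave 0.18 and 0.25. Without members of at least 3 SOX2 UMI, a setting also added after the data were seen, GFP in the set with the DBH criterion only was 2497 and 1809 CPM instead of 2468 and 2817. The mean share of members, 3.26%, was 3.07% of all deposited barcodes, 2.88% with at least 2 DBH UMI, 2.27% with DBH required and 2.08% after thinning to 2000 UMI, and 3.15% and 3.36% in the single libraries. Of the leading genes' values under these alternatives, 8 of 338 against all other barcodes, 1 of 112 against other neurons and 9 of 56 between members with and without DBH no longer passed.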
